A study of Mus musculus with 24 samples.

Results

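The genes described here are 10 regulators of the G1 phase of the cell cycle: the D-type cyclins Ccnd1, Ccnd2 and Ccnd3, their kinases Cdk4 and Cdk6, the kinase inhibitors Cdkn2a, Cdkn2b, Cdkn2c and Cdkn1b, and Rb1. They were taken by symbol from 2 results tables, one for control and one for paused cells, and all 10 were found among the 19780 genes of the control table and the 19979 of the paused table. The study used mouse E14 embryonic stem cells, an established line grown on gelatin in serum with leukaemia inhibitory factor. The 3 genotypes were wild type and a first and a second Smad2 knockout line (labelled Smad2_KO1 and Smad2_KO2), each kept in control medium or treated for 12 h with 200 nM INK128, an inhibitor of the kinase mTOR that is used here to pause the cells. The 24 poly(A) libraries fall into 6 groups of 4. Each knockout line may be a single clone, how Smad2 was disrupted is not given in the sources used here, and nothing says that the 4 samples of a group came from separate cultures, so that p-values measure only the spread between these samples.

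D-type cyclins are the growth-factor-sensitive switch of G1. They bind CDK4 or CDK6, and the complex phosphorylates the retinoblastoma protein Rb1, which then releases E2F factors to transcribe genes of S phase. INK4 proteins, coded by Cdkn2a, Cdkn2b, Cdkn2c and Cdkn2d (the last not among the 10 genes), block CDK4 and CDK6, whereas p27, coded by Cdkn1b, binds assembled cyclin and kinase complexes. Embryonic stem cells are known for a short G1 phase, and in many other cell types TGF-beta signals that run through SMAD proteins raise Cdkn2b and slow G1. The question here was how these transcripts changed when Smad2 was lost, in control and in paused cells.

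The tables hold 1 mean, 1 change, 1 standard error and 1 p per gene and no value of a single library, so the spread between libraries is seen only through the standard error and no value per sample can be shown. The 2 knockout lines cannot be separated. The tables do not say which genotype is the numerator; a negative change is taken as lower in the knockout, since the Smad2 row is negative in both. In the authors' deposited tables Smad2 fell by 0.35 in control cells (SE 0.07) and by 0.63 in paused cells (SE 0.06) on the log2 scale. Were the ratio the other way round, each direction given here would flip. Defining stem cell transcripts were abundant: the lowest mean among Pou5f1, Nanog, Sox2, Zfp42 and Esrrb was 18775 normalized counts in the authors' deposited control table and 18889 in that for paused cells. Of these 5, Nanog was called higher in both authors' deposited tables (0.32, SE 0.06, and 0.18, SE 0.07) and Pou5f1 lower in the control one (-0.18, SE 0.06). Markers of other cell types were measured too. Beside the counts that follow, 19.5% of all genes in control and 20.5% in paused cells were called higher. The shares called lower were 21.9% and 22.0%. All 5 primitive endoderm markers were called higher in the knockout in both conditions, at a summed level of 10.2 ppm in control and 12.6 ppm in paused cells (ppm, normalized counts per 1000000 of a table's summed means). Of 5 fibroblast markers 3 were called lower in each condition (summed 17.7 and 18.0 ppm), of 4 measured mesoderm markers 2 and 3 were lower (12.5 and 12.8), and of 4 measured neuroectoderm markers 2 were lower and 1 higher in each (183 and 98.8). Of 5 trophoblast markers, 2 were lower and 1 higher in control cells and 1 was lower and 1 higher in paused cells (174 and 194). Single genes not called in either condition weighed heavily in the last sums. Tubb3 held 126 and 43.4 ppm of the neuroectoderm sums, and Krt8 151 and 170 ppm of the trophoblast sums. No marker in the tables is listed at 0, and the part of such cells in the changes below was not tested. In bulk RNA, fewer cells that express a gene and less RNA per cell cannot be told apart.

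Promoter sequences are shown for 4 of the genes as examples of letters that regulators measured below are known to recognize. The first pair holds the E-box CACGTG, the sequence that Myc and Mycn proteins bind, and the second pair holds the SMAD box CAGAC, and capitals mark each match on either strand. The windows are RefSeq sequences of GRCm38.p6, the assembly also called mm10, from 250 bases before to 50 bases after the annotated start, 5′ to 3′ on the strand of the gene, at chr10:127063285-127063584 (plus strand, Cdk4), chr5:3343643-3343942 (plus, Cdk6), chr17:47504801-47505100 (plus, the upstream start of Ccnd3) and chr4:89310983-89311282 (minus, Cdkn2b).
Cdk4: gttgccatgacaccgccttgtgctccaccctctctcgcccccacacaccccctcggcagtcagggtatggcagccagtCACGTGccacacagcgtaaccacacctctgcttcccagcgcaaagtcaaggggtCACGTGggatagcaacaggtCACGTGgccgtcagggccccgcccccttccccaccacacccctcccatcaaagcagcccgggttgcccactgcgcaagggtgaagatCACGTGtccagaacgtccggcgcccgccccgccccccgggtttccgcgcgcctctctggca
Cdk6: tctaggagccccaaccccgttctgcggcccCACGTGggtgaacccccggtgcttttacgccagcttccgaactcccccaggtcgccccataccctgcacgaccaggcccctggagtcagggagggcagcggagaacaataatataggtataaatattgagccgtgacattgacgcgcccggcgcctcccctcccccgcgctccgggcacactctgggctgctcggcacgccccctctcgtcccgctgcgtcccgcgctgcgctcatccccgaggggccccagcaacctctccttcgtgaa
Ccnd3: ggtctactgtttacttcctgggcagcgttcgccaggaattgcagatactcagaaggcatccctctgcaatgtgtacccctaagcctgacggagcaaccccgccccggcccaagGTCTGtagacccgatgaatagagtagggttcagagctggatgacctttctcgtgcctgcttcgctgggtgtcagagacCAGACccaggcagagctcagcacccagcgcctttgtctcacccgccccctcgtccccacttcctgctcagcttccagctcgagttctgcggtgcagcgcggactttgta
Cdkn2b: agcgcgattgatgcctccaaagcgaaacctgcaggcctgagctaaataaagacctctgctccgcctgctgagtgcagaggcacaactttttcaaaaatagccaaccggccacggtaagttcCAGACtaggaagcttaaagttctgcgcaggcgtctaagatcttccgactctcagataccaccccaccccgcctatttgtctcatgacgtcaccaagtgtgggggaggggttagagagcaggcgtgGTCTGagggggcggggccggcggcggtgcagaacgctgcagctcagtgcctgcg

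The window of Cdk4 held 4 copies of CACGTG, which start at positions -172, -118, -98 and -11 from the transcription start. Among all 32851 promoter windows of this length, 7.15% held at least 1 copy and 8 windows (0.0244%) held 4 or more. Cdk6 had 1 copy, at position -220, and Cdkn2c, which is not printed, had 1 at position 35 in the window at chr4:109665323-109665622 (minus strand). The SMAD box, searched as CAGAC or its reverse complement GTCTG, occurred at -137 and -59 in the Ccnd3 window and at -129 and -4 in the Cdkn2b window, and once, at -188, in the same Cdkn2c window, which thus held both motifs. Neither motif was in the windows of Cdkn1b and Cdkn2a or in the other windows of Ccnd3 and Cdkn2c. Over all promoters, 49.6% of windows held at least 1 SMAD box and 16.2% at least 2, so this count is common. The SMAD palindrome GTCTAGAC (0.213% of windows) and the E2F sequences TTTCGCGC (0.323%) and TTTGGCGC (0.514%) were in none of the member windows. RefSeq windows were found for 7 of the 10 genes and not for Ccnd1, Ccnd2 and Rb1. A match of letters is not evidence that a factor was bound.

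D-type cyclins did not change as 1 group. Ccnd1 and Ccnd2 fell in the knockout in both conditions, while Ccnd3 rose in both. Ccnd2 (chr6:127125162-127152193, minus strand, GENCODE M21 on GRCm38) had the steeper loss: it fell by 0.83 in the authors' deposited control table (adjusted p 4.45e-17, SE 0.09, at a mean of 845 normalized counts). The knockout held 56.4% of the wild-type amount. In the authors' deposited paused table it fell by 0.56 (adjusted p 9.24e-06, SE 0.12, at a mean of 192 normalized counts), which left 68.0%. Ccnd1 (chr7:144929931-144939925, minus strand), the cyclin most often tied to growth factor input, fell by 0.38 in the authors' deposited control table (adjusted p 1.67e-08, SE 0.06, at a mean of 7210 normalized counts) and by 0.47 in that for paused cells (adjusted p 4.63e-05, SE 0.10, at a mean of 1843 normalized counts). The knockout therefore kept 76.8% and 72.3% of the wild-type Ccnd1 level. Ccnd3 (chr17:47505051-47599691, plus strand) was higher by 0.43 in the authors' deposited control table (adjusted p 8.02e-08, SE 0.07, at a mean of 8903 normalized counts), or 1.34-fold. Its rise in the authors' deposited paused table was 0.24 (adjusted p 0.00554, SE 0.08, at a mean of 5252 normalized counts), or 1.18-fold. The 95% intervals of Ccnd3 lay above 0 in both conditions (0.28 to 0.57 and 0.09 to 0.39), and those of Ccnd1 and Ccnd2 lay below it.

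The kinases that D cyclins activate both fell, Cdk6 far more than Cdk4. Cdk6 (chr5:3341485-3531008, plus strand) had the largest change of the 10 genes in both tables. It fell by 1.38 in the authors' deposited control table (adjusted p 1.25e-71, SE 0.08, at a mean of 1252 normalized counts). Knockout cells held 38.5% of the wild-type amount. It fell by 1.01 in the authors' deposited paused table (adjusted p 2.29e-13, SE 0.13, at a mean of 1108 normalized counts), which left 49.8%. Only 1.35% of all genes (control table) and 2.35% (paused table) had a lower change than Cdk6. Cdk4 (chr10:127063534-127067920, plus strand), the more abundant of the pair, fell by 0.18 in the authors' deposited control table (adjusted p 0.0048, SE 0.06, at a mean of 17896 normalized counts). In the authors' deposited paused table it fell by 0.16 (adjusted p 7.14e-06, SE 0.03, at a mean of 17686 normalized counts). The knockout thus held 88.4% and 89.7% of the wild-type Cdk4 level. The control value of Cdk4 did not pass when both genotypes were set to equal summed counts (-0.12, adjusted p 0.0632) or centred on the median gene (-0.13, adjusted p 0.059).

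**Figure D1:**
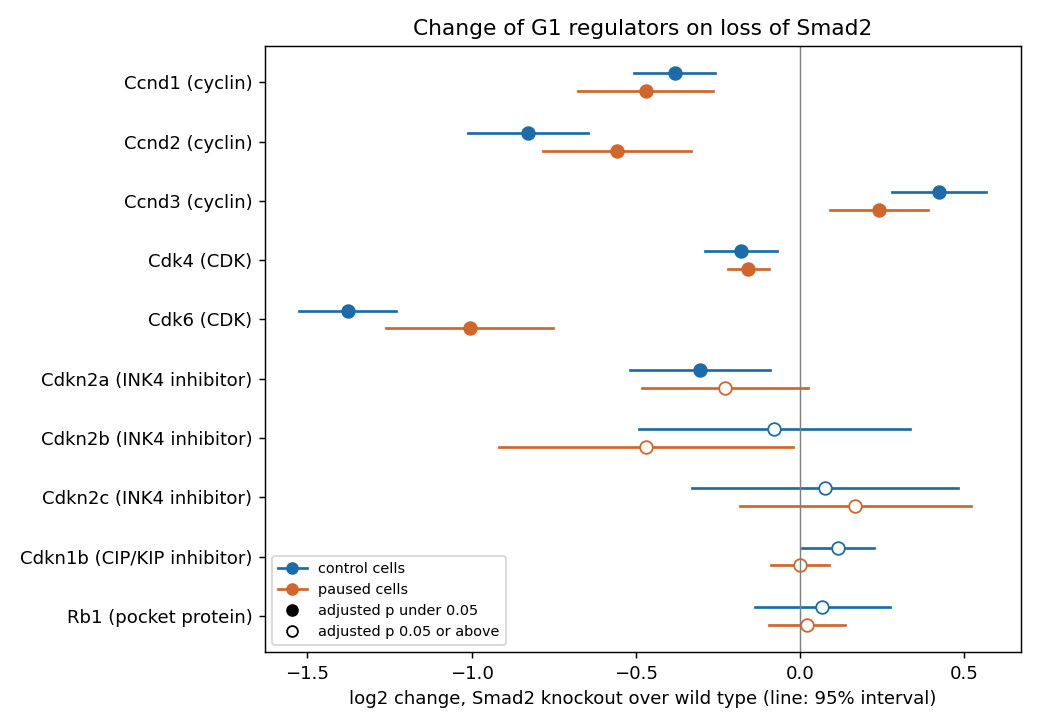
Log2 change of each gene (x axis, Smad2 knockout over wild type) in control and paused cells, with 95% intervals from the deposited standard errors as lines and filled points for an adjusted p under 0.05. Cdk6, Ccnd2 and Ccnd1 lie left of 0 in both conditions, Ccnd3 lies right of it in both, and Rb1, Cdkn1b, Cdkn2b and Cdkn2c have open points throughout.

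Of the INK4 genes Cdkn2a, Cdkn2b and Cdkn2c, only Cdkn2a was called, in control cells, and all 3 had low means. Cdkn2a (chr4:89274471-89294653, minus strand) codes for both p16 and the p53 activator Arf from shared exons, which a count per gene cannot separate. It fell by 0.30 in the authors' deposited control table (adjusted p 0.0152, SE 0.11, at a mean of 185 normalized counts), a call that was lost at equal summed counts (-0.25, adjusted p 0.0539) and on centring on the median (-0.25, adjusted p 0.0519). Its value in the authors' deposited paused table was -0.23 (adjusted p 0.15, SE 0.13, at a mean of 129 normalized counts). Cdkn2b (chr4:89306299-89311039, minus strand), the gene next to it that codes for p15, had a change of -0.08 in the authors' deposited control table (adjusted p 0.804, SE 0.21, at a mean of 86.9 normalized counts). In the authors' deposited paused table its change was -0.47 (adjusted p 0.0849, SE 0.23, at a mean of 52.4 normalized counts). The 95% interval of Cdkn2b ran from -0.49 to 0.34 in control cells and from -0.92 to -0.02 in paused cells, wide at so low a level. Cdkn2c (chr4:109660876-109667189, minus strand), which codes for p18, had the lowest mean of the 10 genes, 39.4 and 46.8 normalized counts in the authors' deposited tables, and changes of 0.08 (SE 0.21) and 0.17 (SE 0.18) with adjusted p of 0.798 and 0.472.

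Cdkn1b and Rb1, which act on the kinase complex and downstream of it, were not called in either condition. Cdkn1b (chr6:134920401-134925513, plus strand) had a change of 0.12 in the authors' deposited control table (adjusted p 0.0811, SE 0.06, at a mean of 1267 normalized counts) and of 0.00 in that for paused cells (adjusted p 0.987, SE 0.05, at a mean of 1786 normalized counts). The control value passed the threshold at equal summed counts (0.17, adjusted p 0.00766) and on centring on the median (0.17, adjusted p 0.00838). In paused cells the 95% interval of Cdkn1b was narrow, from -0.09 to 0.09. Rb1 (chr14:73183673-73325822, minus strand) had a change of 0.07 in the authors' deposited control table (adjusted p 0.636, SE 0.10, at a mean of 2070 normalized counts). It had a change of 0.02 in the authors' deposited paused table (adjusted p 0.797, SE 0.06, at a mean of 2479 normalized counts). Its 95% interval ran from -0.14 to 0.27 in control and from -0.09 to 0.14 in paused cells.

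In all, 6 of the 10 genes had an adjusted p under 0.05 in control cells, against 41.4% of all 19778 genes tested there; 5 were lower (21.9% of all genes were called lower) and 1 was higher (19.5%). At equal summed counts and on centring on the median, 3 were lower and 2 higher, since Cdk4 and Cdkn2a dropped out and Cdkn1b came in. In paused cells 5 of 10 were called, against 42.6% of 19979; 4 were lower (22.0%) and 1 was higher (20.5%). With so many genes called at large, these shares say little about the group. The median change of the 10 genes was -0.13 in control and -0.19 in paused cells, beside a median of 0.00 over all genes in each table. Ccnd1, Ccnd2, Cdk4 and Cdk6 were called lower in both conditions (16.0% of 19132 genes were) and Ccnd3 higher in both (14.3%). Calls with a fall of at least 2-fold were rarer, 2.52% of genes in control and 2.21% in paused cells, and Cdk6 was the 1 member among them. Among all genes 47.1% of control calls and 48.2% of paused calls were higher in the knockout, against 60.5% and 57.6% at equal summed counts and 60.1% and 60.9% on centring on the median.

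Whether the knockout change itself differed between conditions was tested as the paused change minus the control change over the combined standard error (normal test, two-sided, Benjamini-Hochberg adjustment over 19134 genes). None of the 10 genes passed, where 1.44% of all genes did; of those calls 49.8% were higher, against 35.9% at equal summed counts and 46.3% on centring. At an unadjusted p under 0.05 there was 1 of 10, Cdk6, where 12.9% of all genes lay under that value. The fall of Cdk6 was smaller in paused cells by 0.37 (SE 0.15, p 0.0131, adjusted p 0.22, 95% interval 0.08 to 0.67). The difference was 0.27 for Ccnd2 (SE 0.15, adjusted p 0.442, interval -0.02 to 0.56), -0.18 for Ccnd3 (SE 0.11, adjusted p 0.474, interval -0.39 to 0.02) and -0.09 for Ccnd1 (SE 0.12, adjusted p 0.847, interval -0.33 to 0.15). Cdk4 had the tightest difference, 0.02 (SE 0.06, interval -0.10 to 0.15), and Cdkn2b the loosest, -0.39 (SE 0.31). The other differences were -0.12 for Cdkn1b (SE 0.07), -0.05 for Rb1 (SE 0.12), 0.08 for Cdkn2a (SE 0.17) and 0.09 for Cdkn2c (SE 0.27).

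Mean levels differed much more between the tables than between genotypes for Ccnd1 and Ccnd2. A table's mean combines its libraries over genotypes, has no error of its own and was normalized apart from the other table, so these levels are compared in ppm and without a test. Ccnd1 stood at 157 ppm (control table) and 41.6 (paused table), 3.76-fold lower. Ccnd2 stood at 18.3 and 4.33 ppm, 4.23-fold lower. Of the 10958 genes with at least 5 ppm on average, 3.47% were at least 2-fold lower in the paused table (5.28% of all genes in both tables) and 0.602% at least 3-fold lower; 22 genes had a lower ratio than Ccnd1 and 12 a lower one than Ccnd2. Ccnd3 was 1.63-fold lower (193 and 119 ppm). Cdk4 (389 and 399 ppm) and Cdk6 (27.2 and 25.0) had ratios within 1.09-fold.

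**Figure D2:**
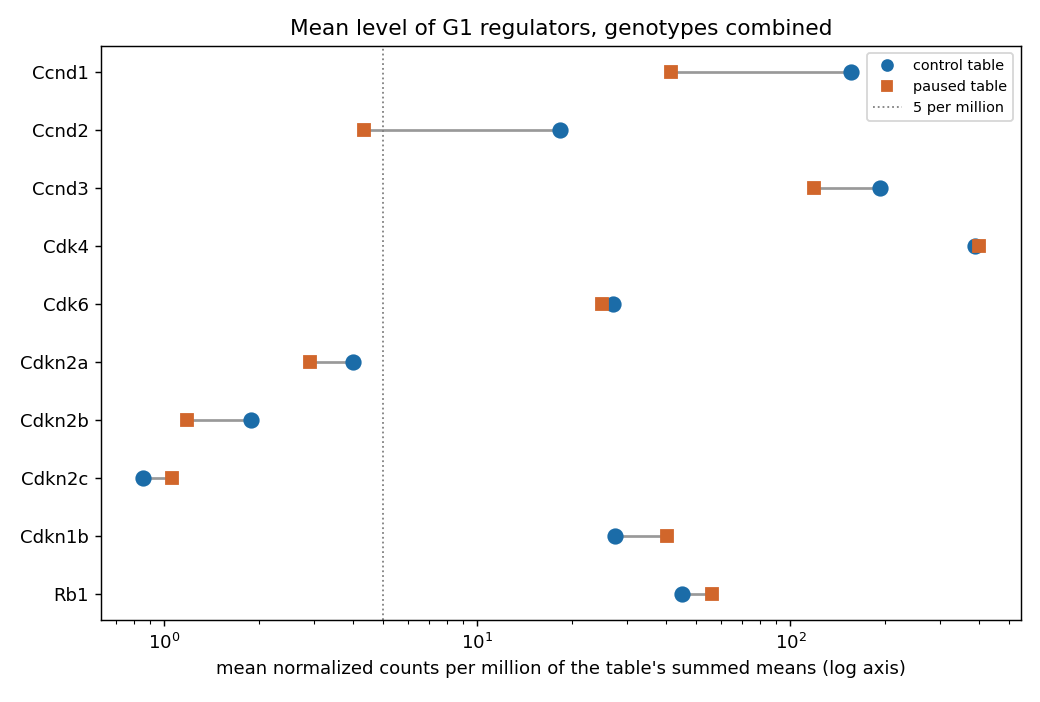
Mean normalized counts per 1000000 of the table's summed means (log x axis) for each gene in the control table (circles) and the paused table (squares), genotypes combined. Ccnd1 and Ccnd2 are 3.76-fold and 4.23-fold lower in the paused table, whereas the symbols of Cdk4 and Cdk6 nearly coincide.

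Among the inhibitors, Cdkn1b went the other way, from 27.5 ppm in the control table to 40.3 in the paused table, 1.47-fold higher, and 17.0% of genes of at least 5 ppm had a higher ratio. None of the 10 genes was at least 2-fold higher in the paused table, as 4.97% of genes of at least 5 ppm and 8.53% of all genes in both tables were. Rb1 was 1.25-fold higher (44.9 and 56.0 ppm). Cdkn2a (4.02 and 2.91 ppm) was 1.38-fold lower and Cdkn2b (1.89 and 1.18) 1.60-fold lower, while Cdkn2c (0.856 and 1.06) was 1.23-fold higher; these 3 lie under 5 ppm. Centring on the median gene, which was 0.06 higher in the paused table on the log2 scale, gave 3.93-fold for Ccnd1, 4.42-fold for Ccnd2 and 1.40-fold for Cdkn1b. No test of INK128 itself was possible, since each deposited comparison is between genotypes.

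**Figure D3:**
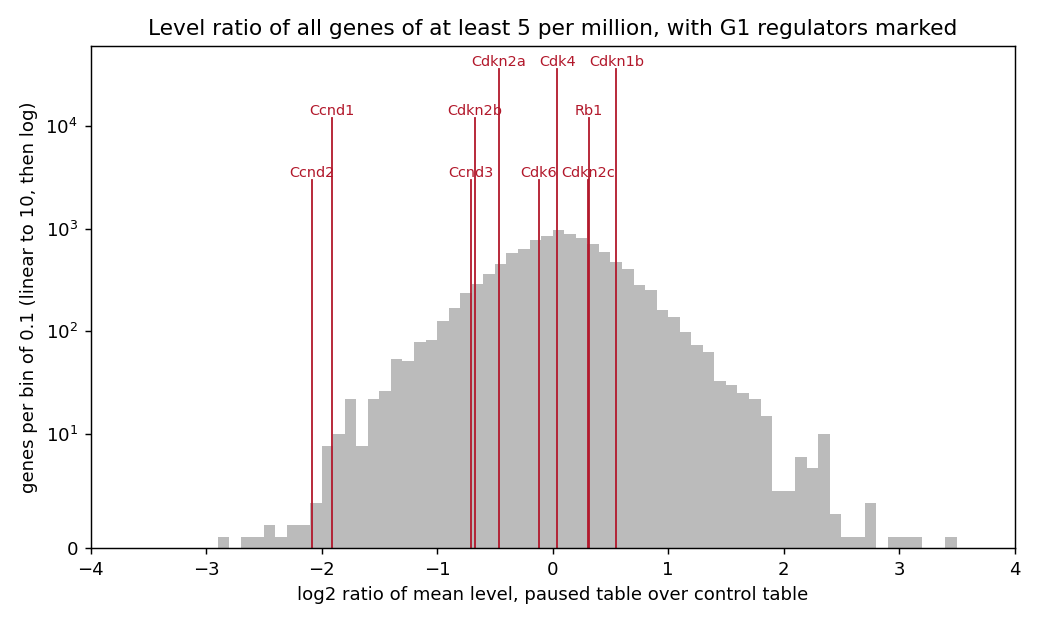
Number of genes per bin of 0.1 (y axis, linear to 10 and then log) by log2 ratio of mean level in the paused over the control table (x axis), for the 10958 genes of at least 5 ppm, with red lines at the ratios of the 10 G1 regulators. Ccnd2 and Ccnd1 lie in the sparse left tail, with 12 and 22 genes below them, and Cdkn1b lies on the right flank.

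The level of each genotype can be worked out from a mean and a change if the make-up of the mean is assumed. Such levels also rest on a negative change meaning lower in the knockout, and would differ in size were the ratio the other way round. Within a condition the ratio of the genotypes is the deposited change itself, so these levels do not test it. Folds between conditions differ by genotype only through the difference of changes, which passed for no member. If knockout libraries were 8 of 12 in each mean, the wild type held 25.9 ppm of Ccnd2 in control and 5.51 in paused cells, and the knockout 14.6 and 3.74. Both genotypes thus had less Ccnd2 in the paused table, 4.70-fold in wild type and 3.89-fold in knockout cells. For Ccnd1 the corresponding values were 185 and 51.0 ppm in wild type (3.63-fold) and 142 and 36.9 in knockout cells (3.86-fold). Ccnd3 stood at 157 and 106 ppm in wild type and at 211 and 125 in knockout cells. Cdk6 stood at 46.1 and 37.6 in wild type and at 17.7 and 18.7 in knockout cells, so its level differed by genotype more than by condition. With 4 of 8 libraries the wild-type folds were 4.55 for Ccnd2 and 3.67 for Ccnd1.

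Levels of different genes were compared per kb of the longest annotated transcript. Among the D cyclins of the control table, Ccnd3 made up 52.8%, Ccnd1 44.1% and Ccnd2 3.05% of the summed level per kb. In the paused table these shares were 72.2%, 26.1% and 1.61%, and the summed level went from 94.9 to 42.5 ppm per kb. The order of Ccnd1 and Ccnd3 in the control table depends on the length used: with all exons of a gene joined, Ccnd1 held 58.1% and Ccnd3 38.5% in control, against 38.7% and 59.2% in the paused table. Ccnd3 gained share in the paused table and Ccnd2 was the least under both lengths. Cdk4 held 98.8% of the level per kb of the 2 kinases (control table) and 98.9% (paused table), with Cdk6 at 1.23% and 1.10% of means that combine the genotypes. Among the INK4 genes Cdkn2d, read from the list of other CDK inhibitors and named after its values were seen, held the most, 6.92 and 8.41 ppm per kb or 52.8% and 65.0% of the family. Cdkn2a held 34.2% and 25.1%, Cdkn2b 10.3% and 6.57%, and Cdkn2c 2.64% and 3.30%. The Cdkn2a count also holds Arf, so its share and the family sum are not of kinase inhibitors alone. Length matters here too: Cdkn2a stood at 4.49 and 3.25 ppm per kb, against 3.43 and 2.48 with joined exons. The summed INK4 level was 13.1 and 12.9 ppm per kb, beside 6.04 and 8.86 for Cdkn1b and 9.65 and 12.0 for Rb1.

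Some members share exonic bases with a gene on the opposite strand. The library kit keeps strand, per the labels, but whether reads were counted by strand is not given in the sources used here. In GENCODE M21, 23.4% of the joined exon length of Ccnd1 lies over Oraov1 and 19.7% of that of Cdk4 over Tspan31. Oraov1 was not called (-0.12, SE 0.09, and -0.06, SE 0.07, in the authors' deposited tables, control first). Tspan31 was called lower in both authors' deposited tables (-0.19, SE 0.05, and -0.28, SE 0.04), at a mean of 2626 and 1523 normalized counts, well under that of Cdk4. Overlaps of Ccnd2, Ccnd3 and Cdk6 with single antisense or neighbouring genes were each under 5% of the joined exons, at 3.95%, 4.11% and 2.63%. Their part in the values was not tested.

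Another 60 genes of G1 control, in 7 lists by role, were read from the same tables. In control cells 33 of 60 were called (8 higher, 25 lower, median change -0.09) and in paused cells 35 of 60 (11 higher, 24 lower, median -0.05), against 41.4% and 42.6% of all genes. The control split was less one-sided at equal summed counts (11 higher, 18 lower) and on centring on the median (10 higher, 19 lower). Over all genes the share of control calls that were higher also went up, from 47.1% to 60.5% and 60.1%. The shift in the 60 genes is thus not particular to them. E2F and DP factors, only some of which carry the signal from Rb1 to S-phase genes, had the lowest list median in both conditions. Of these 10 genes, 7 were called lower and 1 higher in the control table (median -0.31). The paused table had 7 called lower and 2 higher (median -0.22). Among all genes, 21.9% (control table) and 22.0% (paused table) were called lower. The shares called higher were 19.5% and 20.5%. Tfdp1, the DNA-binding partner of E2F proteins, fell by 0.59 (adjusted p 1.29e-21, SE 0.06) and by 0.45 (adjusted p 1.9e-14, SE 0.06) in the authors' deposited tables, control first. In the authors' deposited tables, control first, E2f4 fell by 0.43 (SE 0.06) and 0.25 (SE 0.05). In the same order, E2f8 fell by 0.42 (SE 0.08) and 0.20 (SE 0.07) and E2f5 by 0.15 (SE 0.06) and 0.33 (SE 0.05). The control call of E2f5 was lost at equal summed counts and on centring on the median, and the paused call of E2f8 on centring. Of the activating E2Fs, E2f2 rose by 0.41 (SE 0.09) in control and 0.50 (SE 0.09) in paused cells (both from the authors' deposited tables). E2f3, also an activator and outside the rule for named genes, fell by 0.28 (SE 0.04) and 0.33 (SE 0.05) in the authors' deposited tables, control first. E2f1, the remaining activator and likewise outside that rule, was not called in the authors' deposited control table (0.19, SE 0.11) and called higher in the paused one (0.15, SE 0.06).

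Of 6 genes for cyclin E, cyclin A and their kinases, 2 were called lower in control cells and 1 in paused cells, beside 21.9% and 22.0% of all genes. Ccne1, the cyclin that acts with CDK2 after the D cyclins, fell by 0.36 (adjusted p 1.86e-05, SE 0.08) and by 0.34 (adjusted p 2.13e-07, SE 0.06) in the authors' deposited tables, and its mean level was 2.73-fold lower in the paused table. Ccna2, the cyclin of S phase, fell by 0.13 (SE 0.03) in the authors' deposited control table. That call was lost at equal summed counts and passed on centring on the median, in both cases with a smaller fall. Another list held pocket proteins, subunits of the DREAM complex, which represses cell cycle genes, and Mybl2, which is not part of that complex. Of its 8 genes, 4 were called in control cells (2 higher, 2 lower), beside 41.4% of all genes. In paused cells 2 of 8 were called (1 higher, 1 lower), beside 42.6%. Rbl2, a relative of Rb1, rose by 0.38 (adjusted p 0.00242, SE 0.11) in the authors' deposited control table, where Rbl1 (-0.17, SE 0.06) and Lin9 (-0.16, SE 0.05) fell. Both of these falls were lost as calls at equal summed counts and on centring on the median. Mybl2 rose by 0.15 (SE 0.06) and 0.14 (SE 0.05) in the authors' deposited tables, control first. In the authors' deposited paused table Rbl1 fell by 0.15 (SE 0.06), a call also lost at equal summed counts and on centring.

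Of 4 other CDK inhibitors, 1 was called in control cells (lower) and 2 in paused cells (1 higher, 1 lower), beside 41.4% and 42.6% of all genes. Cdkn2d was not called (0.10, SE 0.08, and -0.05, SE 0.07, in the authors' deposited tables). Cdkn1a, which codes for the p53 target p21, fell by 0.49 (adjusted p 1.47e-05, SE 0.10) and by 0.45 (adjusted p 1.53e-06, SE 0.09) in the authors' deposited tables, control first. Cdkn1c, an imprinted gene that codes for p57, was not called in the authors' deposited control table (0.12, SE 0.12) and rose by 0.84 in that for paused cells (adjusted p 9.4e-07, SE 0.16). The difference of its change between conditions passed the threshold, at 0.72 (adjusted p 0.0282, SE 0.20). CDK activators were called lower in 2 of 8 cases in control cells and 3 of 8 in paused cells, with none higher, beside 21.9% and 22.0% of all genes called lower. The largest was Cks1b, a subunit that also helps SKP2 to mark p27 for degradation, which fell by 0.40 (SE 0.07) and 0.29 (SE 0.05) in the authors' deposited tables, control first. Ccnh, a cyclin of the CDK-activating kinase, fell by 0.13 in both authors' deposited tables (SE 0.05 and 0.03), and Cks2 by 0.26 (SE 0.05) in that for paused cells. The control call of Ccnh was lost at equal summed counts and on centring on the median.

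Of the genes for turnover of G1 cyclins and p27, 6 of 12 were called in control cells (1 higher, 5 lower) and 8 of 12 in paused cells (2 higher, 6 lower), beside 41.4% and 42.6% of all genes. Fbxo4, an F-box protein linked to cyclin D1 turnover, fell by 0.60 (SE 0.22) and 0.65 (SE 0.15) from a low level (means of 59.3 and 90.3 normalized counts) in the authors' deposited tables. Skp1a, the core adaptor of these ligases, fell by 0.33 (SE 0.09) and 0.26 (SE 0.06) in the authors' deposited tables, and Skp2 by 0.18 (SE 0.05) and 0.34 (SE 0.06), control first. Rnf123 fell by 0.38 (SE 0.07) in the authors' deposited control table and was not called in that for paused cells (-0.05, SE 0.07).

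**Figure D4:**
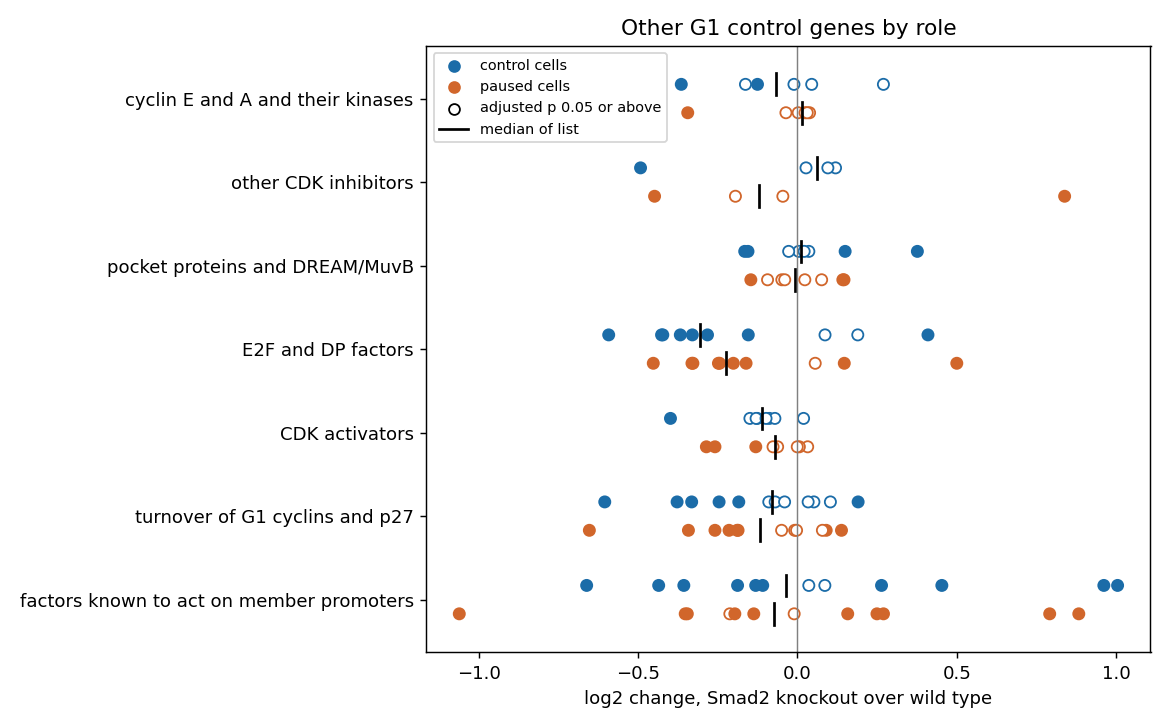
Log2 change (x axis, Smad2 knockout over wild type) of 60 other G1 control genes in 7 lists, in control and paused cells, with filled points for an adjusted p under 0.05 and a black bar at each list's median. The medians of the E2F and DP list lie at -0.31 and -0.22, and those of the other lists between -0.12 and 0.06.

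Factors known to act on the promoters of these genes were called in 10 of 12 cases in each condition, 4 higher and 6 lower in control cells and 5 of each in paused cells, beside 41.4% and 42.6% of all genes called. Mycn, whose protein recognizes E-box letters such as those shown above, fell by 0.66 (adjusted p 8.21e-38, SE 0.05, at a mean of 12465 normalized counts) in the authors' deposited control table and by 1.06 (adjusted p 4.96e-53, SE 0.07, at a mean of 7219 normalized counts) in that for paused cells. The difference of the Mycn change was -0.40 (adjusted p 9.63e-04, SE 0.08). Myc, outside the rule for named genes and given because it shares that E-box, fell by 0.44 (SE 0.08) and 0.35 (SE 0.09) in the authors' deposited tables. Tbx3 and Bmi1, both known as repressors of the Cdkn2a locus, rose: Tbx3 by 1.00 (SE 0.07) and 0.79 (SE 0.05), Bmi1 by 0.96 (SE 0.10) and 0.88 (SE 0.11) (control first, both from the authors' deposited tables). Other Polycomb genes of the list, outside the rule for named genes, gave other values: in the authors' deposited tables Cbx7 was called lower in both conditions (-0.13, SE 0.05, and -0.14, SE 0.04), and Ezh2 was not called in control cells (0.04, SE 0.05) and called higher in paused cells (0.16, SE 0.04). The control call of Cbx7 was lost at equal summed counts and on centring on the median, and its paused call on centring. Smad3, the closest relative of Smad2, rose by 0.26 (adjusted p 1.55e-04, SE 0.06) in the authors' deposited control table and was not called in that for paused cells (-0.21, SE 0.09, adjusted p 0.0546), with a difference of -0.48 (adjusted p 0.00604, SE 0.11). The difference passed for 3 of the 60 genes, Cdkn1c, Mycn and Smad3, where 1.44% of all genes did. At an unadjusted p under 0.05 there were 18 of the 60 (30.0%), where 12.9% of all genes lay under that value. At equal summed counts and on centring on the median Cdkn1c, Mycn and Smad3 passed and Fbxw7, which marks cyclin E for degradation, passed too (-0.26, adjusted p 0.0295, and -0.25, adjusted p 0.0469). Whether any of these factors acted on the 10 genes was not tested.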

How the data were processed

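Poly(A) RNA of 24 samples was grouped by genotype and treatment from the titles, and the authors deposited 1 results table per condition. Per the submitters' processing notes, FastQC, Trim Galore, HISAT2, featureCounts, DESeq2 and mm10 were used; settings, annotation, strand use and the libraries behind each comparison are not given in the sources used here. Per the file headers, the mean is a signal value (normalized counts averaged over libraries by the authors), and the change and its standard error are log2 values. The deposited statistic is a score, checked to equal change over standard error. The deposited p-value and adjusted p-value were used as they stand, and recomputing the Benjamini-Hochberg adjustment moved 0 of them by over 1 percent. No depth of a library can be read from the tables; precision is given by the standard errors, with medians of 0.11 (control) and 0.10 (paused).

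Computed here were the difference between conditions (its script was checked on simulated data), levels per 1000000 of the summed means, and intervals of 95% from the standard errors. Lengths, positions and overlaps are of GENCODE M21 (GRCm38). Skp1 was matched to Skp1a through an older symbol. Named genes are all 10 members, Smad2, and from each list and table up to 3 genes with the largest called change, and each gene called for the difference. The members and lists were chosen with earlier results of these data known. Equal summed counts assumed 8 of 12 libraries to be knockout. Alternatives for levels were chosen after seeing the data. Protein sequences were not used here. Scripts ran under Python 3.11.15 (numpy 2.4.6, pandas 2.3.3, scipy 1.17.1, matplotlib 3.10.9).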

Additional observations from a re-analysis of the deposited data

Results flagged for a closer look

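Among the wider G1 lists, 3 genes responded to loss of Smad2 differently in paused than in control cells, by the test of the difference itself adjusted over all genes. The value was 0.72 for Cdkn1c, higher in paused cells. It was -0.40 for Mycn, which fell further in paused cells. It was -0.48 for Smad3, which was called higher in control cells and not called in paused cells. All 3 calls were lost against a null of differences up to 1.2-fold and when statistics were divided by their middle spread over all genes.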

How the results depend on the processing

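No paired analysis was possible because the tables hold no column per library, and for the same reason no fit without a single replicate was run. Of the 10 members, those called in control cells went from 6 to 1 when a 2-fold change was also asked for, to 2 against a null of changes up to 1.2-fold, and to 1 with the statistic scaled so that its middle spread is that of a standard normal. In paused cells they went from 5 to 1, 2 and 0, and in the last case 1 gene, Cdk6, had an unadjusted p under 0.05, beside 10.5% of all genes. Cdk6 was the gene left at 2-fold in both conditions and under the scaled statistic in control cells, and Cdk6 and Ccnd2 were those left against 1.2-fold. Scaling in this way may be severe, since the middle spread of 2.76 in control and 2.80 in paused cells may hold true changes too, which was not tested. Of the other 60 genes, the calls in control cells went from 33 to 5 against 1.2-fold and to 4 with the scaled statistic, and in paused cells from 35 to 7 and to 2. The 3 calls of the difference went to 0 under both (2 and 8 of the 60 genes had an unadjusted p under 0.05, beside 1.52% and 6.60% of all genes). For calls at an adjusted p, no share of all genes against 1.2-fold or with the scaled statistic is given here. The drops of the members and of the 60 genes therefore cannot be read as particular to them. For the difference, 0 members were called with equal summed counts, centring or a minimum of 5 ppm; the other alternatives can only remove calls. No member changed direction under any alternative run on the change or its difference. The total of member calls in each condition moved by at most 1 at an adjusted p under 0.01, at equal summed counts, on centring and with a minimum of 5 ppm, where 7 members remained measured in control and 6 in paused cells. The standard errors are the only measure of precision, and they were widest for Cdkn2b and Cdkn2c, whose means were the lowest.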

Other observations

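A pair of coding genes shares exonic bases with Rb1 on the opposite strand, and their values, chosen after they were seen, differed from those of Rb1. Lpar6, a receptor for lysophosphatidic acid that lies within the Rb1 gene, fell by 1.11 in the authors' deposited control table (adjusted p 6.83e-29, SE 0.10, at a mean of 604 normalized counts) and by 1.03 in the paused one (adjusted p 2.66e-57, SE 0.06, at a mean of 1094 normalized counts). Rcbtb2, which overlaps one end of Rb1, fell by 0.37 (SE 0.07) and 0.29 (SE 0.07) in the authors' deposited tables. Rb1 itself was not called in either condition, with changes of 0.07 and 0.02 in the authors' deposited tables. The shared bases are 6.78% of the joined Rb1 exons for Lpar6 and 8.11% for Rcbtb2.

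Lower means in the paused table were not shared by all genes of the G1 to S step. Of the 60 other G1 control genes, 1 was at least 2-fold lower in the paused table, Ccne1, and 1 at least 2-fold higher, Ccna1, an A-type cyclin at low level here, where 5.28% and 8.53% of all genes in both tables were. The median log2 ratio of the 60 genes was -0.07, beside 0.09 over all genes. Mybl2, the most abundant of them by mean, had 37575 normalized counts in the authors' deposited control table and 59193 in the paused one.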
